A study of Mus musculus with 17 samples.

Results

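Imprinted genes lying outside the Dlk1-Dio3 cluster were followed through mouse limb buds at E12.5, when the skeleton is being laid down as cartilage. A list of 34 such genes was searched by symbol in the deposited count table, and 34 of 34 were found among its 34682 genes. They were grouped by cluster and by the parental copy generally held to be expressed in those mouse tissues where the gene is imprinted. That gave 12 maternally expressed genes, 17 paternally expressed genes and 5 whose imprint depends on isoform or tissue. A total of 32 members passed the filter on low counts and were tested: 11 of the maternal, 16 of the paternal and 5 of the isoform-dependent genes. The counts do not separate the parental alleles, so every value below is the total of both copies. Whether each gene is imprinted in the limb bud, Ascl2 and Cd81 of the maternal group included, was not tested.

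Polyadenylated RNA was sequenced in 15 limb bud libraries with 34486256 to 53711742 counts each. Wild type (WT) and Dup-LΔBor each had 4 libraries, Dup-C, Dup-L and heterozygous ΔBor (het) had 2 each, and homozygous ΔBor (hom) had 1. All mutants carry structural variants at the Sox9-Kcnj locus of chromosome 11: Dup-C and Dup-L are duplications, ΔBor is a boundary deletion, and Dup-LΔBor joins Dup-L with that deletion. The 4 columns used as Dup-LΔBor carry a genotype string of their own, which joins a duplication, LacZ and a deletion, so every Dup-LΔBor value below rests on reading that string as this genotype. Strain, limb, and the zygosity of the 3 duplication genotypes are not given in the labels, nor whether replicates are separate embryos, so p-values measure a spread between libraries that may be technical. The members Grb10, Ddc and Zrsr1 also lie on chromosome 11, and Sox9 and the Kcnj genes are no members. One marker of limb type split the libraries: Pitx1, a hindlimb transcription factor, reached 60.6 CPM (counts scaled to library size) in WT 1 and 71.2 CPM in WT 3, but 1.86 CPM in WT 2 and 1.84 CPM in WT 4. Dup-L had 0.503 and 0.65 CPM and every other mutant library 39.2 to 118 CPM. Each genotype was therefore compared with the 2 WT libraries on its own side of 10 CPM of Pitx1: Dup-L with WT 2 and WT 4, the others with WT 1 and WT 3. Comparisons on the same side share these WT libraries. Other limb type genes still differed from matched WT. In Dup-LΔBor Tbx4 was higher (log2 fold change 0.42, edgeR adjusted p = 0.0399) and Hoxc11 lower (-1.14, edgeR adjusted p = 0.0278). In Dup-L Tbx4 was lower (-0.48, edgeR adjusted p = 0.0238). The remaining limb type markers measured did not pass in these genotypes. None of the 12 limb mesenchyme markers measured was at 0 in any group, and their summed level was 2000 to 2120 CPM in Dup-LΔBor against 2050 to 2720 CPM in its matched WT. Of these markers Twist2 was lower in Dup-LΔBor (-0.41, edgeR adjusted p = 0.0439) and the rest did not pass there. Xist, expressed from the inactive X, was at 2300 CPM in WT 1, 2600 in Dup-C 1 and 2860 in hom, and below 2 CPM in the remaining libraries.

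Imprinted genes are expressed mainly from the copy inherited from one parent. A differentially methylated region, set in the germ line, marks the copies apart, and a cluster often holds an insulator or a long noncoding RNA that carries the mark to its neighbours. Many paternally expressed members promote fetal growth and many maternally expressed ones restrain it. Igf2 is the growth factor of the group. Igf2r, the receptor that delivers it to lysosomes, Grb10, an adaptor that dampens insulin-type receptor signalling, and Cdkn1c, an inhibitor of cyclin-dependent kinases, act against growth.

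Promoters are shown for some of the members described below, though not for Impact, Phlda2 or Inpp5f, which also differed in a genotype. They come from RefSeq on GRCm38.p6, a different build from the mm9 alignment, so they serve for reading the sequence only. Each covers 250 bases upstream of a start site, except for Peg3 and Usp29, whose start sites point away from each other and enclose the 163 bases printed. The motif CCAAT, or ATTGG on the other strand, the core of the site bound by NF-Y, is in capitals. It was chosen after the sequences had been read and after another motif had been searched. That first motif was TGCCGC, or GCGGCA on the other strand, the letters recognized by ZFP57, which had 0 matches in the 5 sequences printed. It was in 9.3% of the members' windows and 8.68% of all windows of 250 bases.
Igf2, minus strand, chr7:142657497-142657746: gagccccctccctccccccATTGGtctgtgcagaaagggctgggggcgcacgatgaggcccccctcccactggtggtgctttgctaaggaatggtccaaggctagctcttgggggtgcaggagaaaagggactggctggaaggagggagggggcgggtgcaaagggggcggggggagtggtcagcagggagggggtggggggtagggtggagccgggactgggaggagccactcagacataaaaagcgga
Kcnq1ot1, minus strand, chr7:143296548-143296797: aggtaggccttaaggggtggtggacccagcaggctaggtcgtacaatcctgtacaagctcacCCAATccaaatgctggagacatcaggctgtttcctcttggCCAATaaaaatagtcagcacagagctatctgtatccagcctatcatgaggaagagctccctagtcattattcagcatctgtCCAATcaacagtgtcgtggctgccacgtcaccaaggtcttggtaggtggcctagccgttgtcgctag
Slc22a18, plus strand, chr7:143473539-143473788: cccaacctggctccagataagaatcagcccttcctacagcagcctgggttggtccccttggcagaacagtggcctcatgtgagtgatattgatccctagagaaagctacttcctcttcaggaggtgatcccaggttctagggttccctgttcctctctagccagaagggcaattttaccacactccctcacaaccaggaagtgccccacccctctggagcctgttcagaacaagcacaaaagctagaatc
Igf2r, minus strand, chr17:12769707-12769956: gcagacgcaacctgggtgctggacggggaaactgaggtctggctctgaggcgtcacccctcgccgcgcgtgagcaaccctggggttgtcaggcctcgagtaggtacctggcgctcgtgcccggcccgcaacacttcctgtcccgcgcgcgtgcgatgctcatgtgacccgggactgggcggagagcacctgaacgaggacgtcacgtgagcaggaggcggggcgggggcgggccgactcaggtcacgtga
Peg3 to Usp29, minus strand, chr7:6730420-6730582: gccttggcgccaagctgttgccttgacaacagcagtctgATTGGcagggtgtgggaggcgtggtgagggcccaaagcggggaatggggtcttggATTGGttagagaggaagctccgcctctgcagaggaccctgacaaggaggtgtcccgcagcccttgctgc
The Kcnq1ot1 window holds 3 matches, the Igf2 window 1 and the stretch between Peg3 and Usp29 2, while the Slc22a18 and Igf2r windows hold 0. Of the 43 RefSeq windows found for 28 members, 30.2% held the motif, against 33.8% of 32851 windows of all genes. RefSeq gives 4 windows for Igf2, and the one printed is the only one of them with a match.

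Levels of the members covered more than 4 orders of magnitude on the deposited per-length scale (FPKM). Igf2 stood first with a median of 564.24 FPKM over the 15 libraries and a range of 509.32 to 1142.9 FPKM. It was followed by Cdkn1c at 277.96, Grb10 at 246.27, Mest, an early marker of mesoderm, at 233.88, and Gnas, the stimulatory G protein alpha subunit, at 160.24 FPKM. Peg3, a zinc finger protein, had a median of 65.6 FPKM, Ndn, a growth-suppressing MAGE protein, 56.79, Igf2r 37.61 and the zinc finger factor Plagl1 29.49 FPKM. The lower end held Slc22a18 at 0.48 FPKM, Kcnq1ot1 at 0.39, Ascl2 at 0.19, Nnat at 0.16 and Rasgrf1 at 0.03 FPKM. Kcnq1ot1 is a very long noncoding RNA, so its low per-length level came with 765 to 2165 counts a library. Grb10 varied least: its highest library was 1.14 times its lowest in CPM, with 1529 to 1751 CPM over all genotypes. Among the members above 1 FPKM in the median, Phlda2, at 2.84 times, Plagl1, at 2.33 times, and Igf2r, at 2.31 times, had the widest ratio of highest to lowest library.

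**Figure D1:**
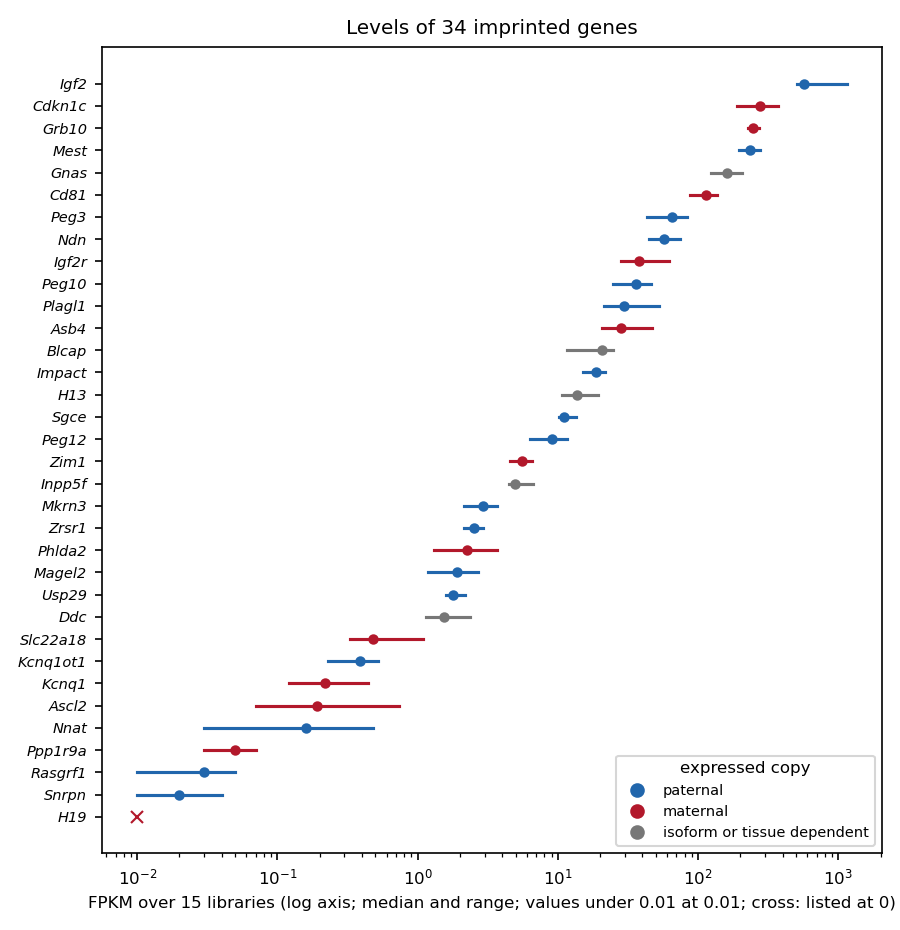
Levels of the 34 members in FPKM on a log axis, with the median (point) and range (line) over 15 libraries, coloured by expressed copy. Igf2 leads at a median of 564.24 FPKM, Grb10 has a narrow range from 226.33 to 270.71 FPKM, and H19 is listed at 0.

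H19 and Snrpn could not be read. H19, the maternally expressed RNA next to Igf2, is listed at 0 counts in 15 of 15 libraries, as is Mir675, the miRNA gene within it. Snrpn, a spliceosome protein gene, had 0 to 6 counts a library, and Snurf, which shares its transcript, 0 in every library. The table lists 10244 genes at 0 throughout, and no source used here says how reads were assigned to overlapping genes, so these rows are no evidence of absence. The other tested members of the Snrpn domain, Ndn, Magel2, Mkrn3 and Peg12, had counts in every library.

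Dup-LΔBor was the genotype in which Igf2 rose. Igf2 was at 5612, 4469, 4566 and 3976 CPM in Dup-LΔBor R2, R3, R4 and R5, and at 3013 and 2480 CPM in WT 1 and WT 3. Every Dup-LΔBor library lay above every other library, the next highest being WT 2 at 3212 CPM. Means were 4656 ± 688 CPM (SD, n = 4) and 2747 ± 377 CPM (SD, n = 2). The fitted log2 fold change was 0.78, or 1.72 times (SE 0.15, adjusted p = 0.00902, edgeR quasi-likelihood F-test). Fitted values do not follow exactly from the printed CPM, because the fit rescaled the libraries after the filter on low counts. That rescaling added 0.06 to log2 fold changes in Dup-L, 0.02 in Dup-LΔBor and 0.01 to 0.03 in the other genotypes. Setting R2, the highest library, aside left 0.67 (edgeR adjusted p = 0.0176), and WT 3 alone, which shares its range of library numbers with Dup-LΔBor, gave 0.93 (edgeR adjusted p = 0.0214). Igf2 did not pass in any other genotype, where its log2 fold change against matched WT ran from -0.1 in Dup-L to 0.07 in het.

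Slc22a18, a maternally expressed transporter gene of the Kcnq1 domain, also rose. It was at 2.05, 1.74, 1.79 and 1.78 CPM in R2 to R5 against 0.862 and 0.774 CPM in WT 1 and WT 3, with no overlap between the groups. The log2 fold change was 1.18 (SE 0.24, adjusted p = 0.0111, edgeR), or 2.27 times. The gene had 23 to 98 counts a library, so its level rests on few reads. Without WT 1 the adjusted p was 0.0549, and against WT 3 alone it was 0.0617, with log2 fold changes of 1.25 and 1.27. The remaining libraries, WT 2 and WT 4 included, had 0.63 to 1.35 CPM.

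Impact, a paternally expressed inhibitor of the GCN2 kinase, rose by less. Its levels were 74.7, 79.8, 86.6 and 86.5 CPM in R2 to R5, and 59.5 and 67.8 CPM in WT 1 and WT 3. The groups did not overlap, and the log2 fold change was 0.38 (SE 0.10, adjusted p = 0.0399, edgeR). This call was lost in 5 of 6 fits that left out 1 library, with edgeR adjusted p of 0.0513 to 0.292 in those, and against WT 3 alone (0.29, adjusted p = 0.197). Impact in Dup-L, het and hom was between 68.8 and 73.5 CPM.

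**Figure D2:**
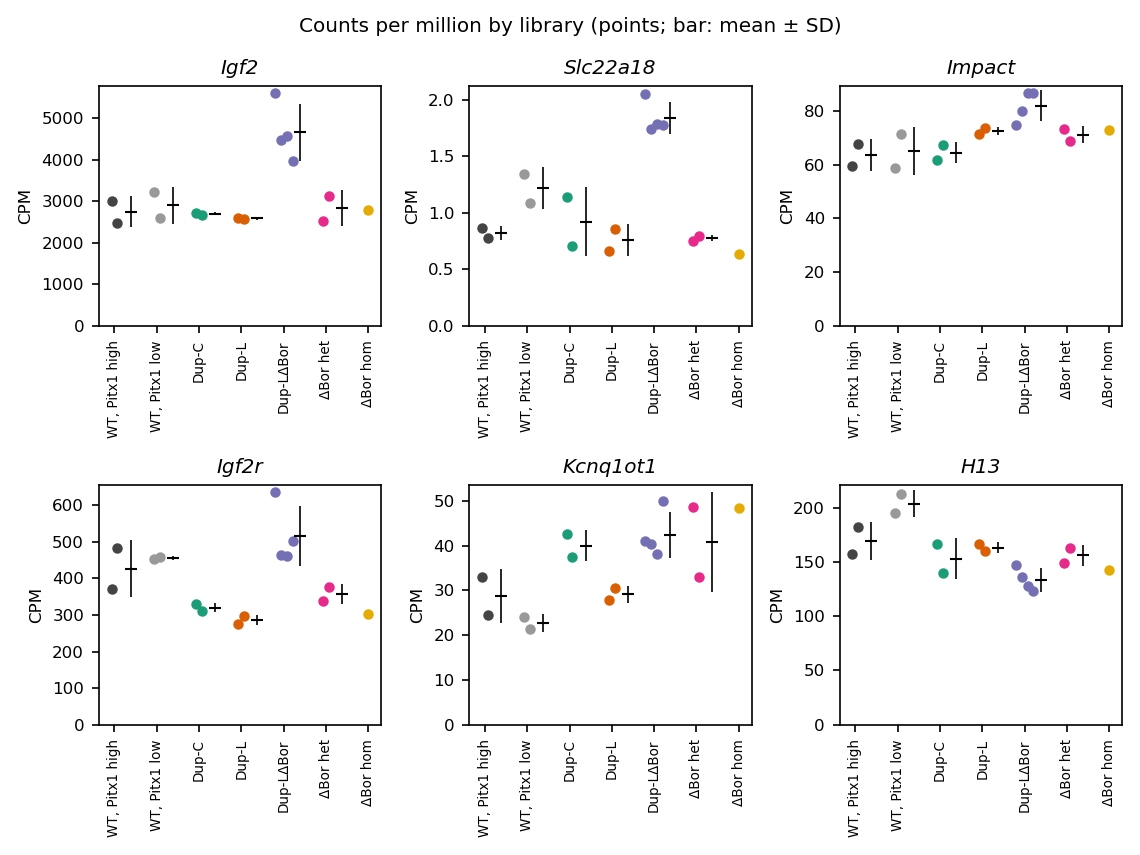
Levels of Igf2, Slc22a18, Impact, Igf2r, Kcnq1ot1 and H13 in CPM by genotype; points are libraries and bars the mean ± SD. Dup-LΔBor stands at 3976 to 5612 CPM of Igf2 and 1.74 to 2.05 CPM of Slc22a18, above all other libraries in both, while H13 is at 122.9 to 147.3 CPM there, a range that also holds hom at 142.4 CPM and Dup-C 2 at 139.5 CPM.

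The 3 members made up 9.38% of the 32 tested, all higher, where 7.83% of all tested genes passed in Dup-LΔBor, 5.01% higher and 2.82% lower. The members' share is close to that background. An unadjusted p under 0.05 was reached by 9 of 32 members, against 27.2% of all genes. All 4 Dup-LΔBor libraries lay above both WT libraries in 6 of 32 members (18.8%, against 16.5% of all genes) and below in 2 (6.25%, against 17.3%). Their median log2 fold change was 0.08, against -0.01 over all genes tested. Among maternally expressed members the median was 0.24 and 10 of 11 values were positive, with 1 past the threshold. Paternally expressed members had a median of 0.08, with 11 of 16 positive and 2 past the threshold. The isoform-dependent members had a median of -0.06, with 1 of 5 positive and 0 past the threshold. Over all genes tested 48.9% of values were positive. All 7 genes of the Kcnq1 domain had positive values, from 0.22 for Phlda2 to 1.18 for Slc22a18, of which 1 passed. Most of these genes are also counted as maternally expressed members, so these counts overlap. With all 4 WT libraries as the reference, Phlda2 stood at -0.1. Kcnq1 had 16 to 74 counts a library and Ascl2 5 to 65.

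Kcnq1ot1, the paternally expressed RNA that silences the Kcnq1 domain on its own chromosome, did not pass in Dup-LΔBor. It is described, like Usp29, Cd81, H13, Blcap, Nnat and Peg10, because of values already seen. Kcnq1ot1 had 41.1, 40.3, 38.2 and 49.97 CPM in R2 to R5 against 33.0 and 24.4 CPM in WT 1 and WT 3 (log2 fold change 0.58, SE 0.17, edgeR adjusted p = 0.0513). Its value was positive in each genotype against matched WT: 0.49 in Dup-C, 0.43 in Dup-L, 0.54 in het and 0.78 in hom. None of these passed, with edgeR adjusted p of 0.541, 0.127, 0.117 and 0.0998, and the comparisons share WT libraries. In Dup-LΔBor it passed in 7 of 12 alternatives, among them all 4 WT libraries as the reference, DESeq2, and offsets for GC content and length (0.76, edgeR adjusted p = 0.00454). With all 4 WT libraries it also passed in het and hom, and with DESeq2 in hom. The library kit does not mark strand, so reads from an overlapping transcript on the other strand could not be told apart from Kcnq1ot1 reads.

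The remaining heads of clusters did not pass in Dup-LΔBor. Cdkn1c was at 833.7, 630.3, 681.6 and 555.7 CPM against 547.6 and 620.4 CPM (log2 fold change 0.23, SE 0.17, edgeR adjusted p = 0.414). Igf2r was at 636.9, 463.7, 459.8 and 503.1 CPM against 371 and 482.1 CPM (0.29, SE 0.13, edgeR adjusted p = 0.179), so WT 3 lay inside the mutant range. Grb10 had 1751, 1628, 1722 and 1529 CPM against 1643 and 1569 CPM (0.06, SE 0.09, edgeR adjusted p = 0.697). Peg3 was at 646.8, 587.6, 598.5 and 529.5 CPM against 513.5 and 606.3 CPM (0.09), and Mest at 841, 641.4, 787.7 and 755 CPM against 650.3 and 689.6 CPM (0.19). These mutant and WT values overlapped. Plagl1 had 204.6, 158.3, 148 and 202.8 CPM against 187.8 and 170.7 CPM (0.01), Ndn 85.7, 106.4, 112.4 and 89.9 CPM against 103.6 and 126.7 CPM (-0.21), and Gnas 1902, 1857, 1865 and 1765 CPM against 1712 and 2173 CPM (-0.06). The edgeR adjusted p of these 5 genes ran from 0.254 for Mest to 0.974 for Plagl1. The Igf2 value with 2 SE on either side ran from 0.48 to 1.08.

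H13 and Blcap did not pass in Dup-LΔBor, though H13 did under some alternatives. H13, a signal peptide peptidase that carries the imprinted gene Mcts2 in an intron, was at 147.3, 136.1, 127.3 and 122.9 CPM against 156.9 and 181.9 CPM (log2 fold change -0.33, SE 0.10, edgeR adjusted p = 0.0573). It was called lower in 6 of 12 alternatives, among them DESeq2, all 4 WT libraries, and offsets for GC content and length (edgeR adjusted p = 0.00461), and in 0 of 6 fits that left out 1 library. Mcts2 rose by 0.72 (SE 0.15, edgeR adjusted p = 0.0144), at 22.7, 26.7, 29.2 and 25.4 CPM against 13.8 and 18.1 CPM. The library kit does not mark strand, and no source used here says how reads of H13 and Mcts2 were divided. Blcap, which hosts the imprinted gene Nnat, was at 28.3 and 30 CPM in R3 and R4 but at 49.9 and 60.3 CPM in R2 and R5, with 46.1 to 58.2 CPM in all other libraries. Nnat was highest in the same R3 and R4, at 0.534 and 0.740 CPM, and lowest in R5 at 0.0531 CPM, all from 36 counts or fewer. R3 and R4 were also the most alike pair of Dup-LΔBor libraries over all genes, with a mean chi-square per gene of 6.28 against 19.8 to 35.5 for the other pairs.

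**Figure D3:**
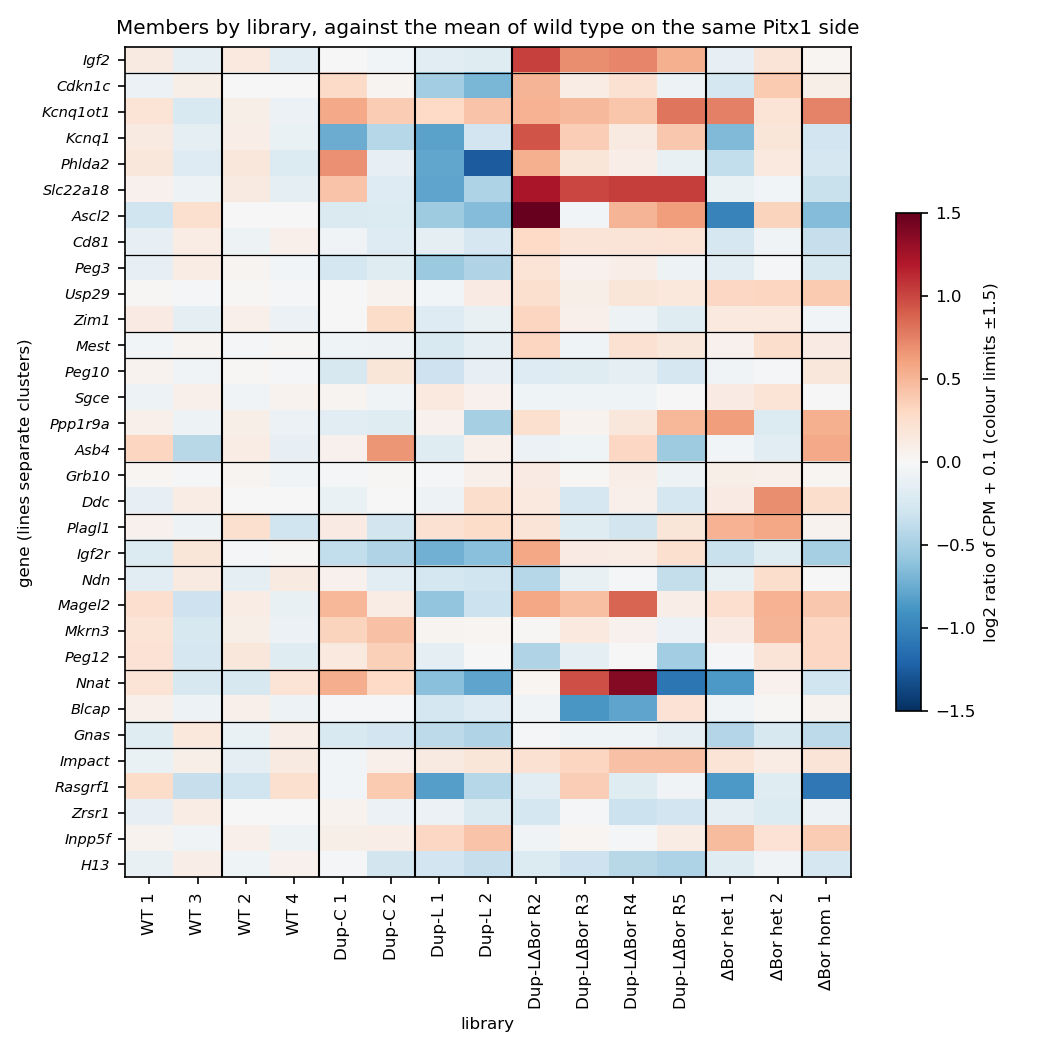
Log2 ratio of each of the 32 tested members (rows, separated by cluster) to the mean of the WT libraries on the same Pitx1 side, per library (columns), with 0.1 CPM added. Igf2 and Slc22a18 are red in all 4 Dup-LΔBor libraries, Igf2r, Peg3 and Phlda2 are blue in both Dup-L libraries, and Blcap is deepest blue in R3 and R4.

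Summed markers of 3 other cell types were lower in Dup-LΔBor than in matched WT with no overlap. Surface ectoderm markers summed to 699 to 874 CPM against 1030 to 1200 CPM, and 3 of 12 tested fell. Erythroid markers summed to 2150 to 3480 CPM against 3760 to 5120 CPM, with 1 of 9 tested lower and 1 of the 11 at 0 in all Dup-LΔBor libraries. Markers of neural crest, glia and nerve summed to 128 to 155 CPM against 158 to 184 CPM, with 2 of 11 tested lower and 1, Stmn2, higher. The other sums overlapped. Cartilage markers reached 1250 to 1890 CPM against 956 to 1310 CPM and muscle markers 559 to 1350 CPM against 578 to 858 CPM, both with 0 past the threshold. Endothelial markers reached 408 to 503 CPM against 372 to 472 CPM, with Pecam1 of 12 higher. Macrophage markers reached 73.7 to 89.1 CPM against 78.4 to 95.5 CPM, with Cd68 of 11 higher (log2 fold change 0.78, edgeR adjusted p = 0.0111). The 3 lower sums were not particular to Dup-LΔBor. In het they also lay below matched WT without overlap: surface ectoderm 660 to 759, erythroid 3040 to 3280 and nerve 114 to 141 CPM. The surface ectoderm and nerve sums did so in Dup-C (826 to 1010 and 138 CPM) and hom (664 and 102 CPM). Erythroid sums did not, at 4270 to 4310 CPM in Dup-C and 6280 CPM in hom. In whole limb buds, more cells of a type and more RNA per cell cannot be told apart. The part of cell composition in the rise of Igf2, Slc22a18 and Impact was not tested.

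Against het, which carries the boundary deletion without the duplication, Dup-LΔBor differed in 6 of 32 members, 18.8%, where 35% of all genes tested passed. Of the 6, 4 were higher and 2 lower, against 17.2% and 17.8% of all genes. Igf2 was higher by 0.71 (SE 0.15, edgeR adjusted p = 0.00258; het 2532 and 3136 CPM), and Slc22a18 by 1.24 (SE 0.25, edgeR adjusted p = 0.00215; het 0.754 and 0.796 CPM). Igf2r, at 338.5 and 376.9 CPM in het, was higher by 0.52 (edgeR adjusted p = 0.00939), and Cd81, a tetraspanin, by 0.37 (edgeR adjusted p = 0.00786). Plagl1 was lower by 0.56 on the log2 scale (-0.56, edgeR adjusted p = 0.0157), and Inpp5f, an inositol phosphatase, had -0.35 (edgeR adjusted p = 0.0143). Summed limb mesenchyme markers did not overlap between these groups, at 2000 to 2120 CPM in Dup-LΔBor against 2490 to 2670 CPM in het. Their part in these values was not tested. The groups also differ in their range of library numbers. With that range as a term, Igf2 and Slc22a18 were the 2 of 32 members still past the threshold. Without het 1 there were also 2, of which Slc22a18 was 1 and Igf2 was not.

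Dup-L showed lower Igf2r, Peg3 and Phlda2 and higher Inpp5f than WT 2 and WT 4. The Dup-L libraries had 275.8 and 295.8 CPM of Igf2r, and the WT libraries 451.6 and 459.2 CPM. Means were 286 ± 14.2 and 455 ± 5.41 CPM (SD, n = 2 each), with a log2 fold change at -0.61 (SE 0.15, edgeR adjusted p = 0.0165). Peg3 was at 319.2 and 344 CPM against 484.1 and 457 CPM (-0.44, SE 0.11, edgeR adjusted p = 0.018). Usp29, the ubiquitin-specific protease gene that starts 163 bases from Peg3 and is expressed from the same paternal copy, had 23.1 and 25.9 CPM against 24.0 and 23.5 CPM (0.11, edgeR adjusted p = 0.472). The difference between these neighbours was not tested.

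Phlda2, a maternally expressed restraint on placental growth, was low throughout, with 41 to 166 counts a library. The Dup-L libraries had 1.51 and 1.07 CPM against 3.02 and 2.31 CPM in WT 2 and WT 4 (log2 fold change -0.99, SE 0.33, edgeR adjusted p = 0.0427). Inpp5f was at 51.5 and 55.6 CPM against 43.6 and 39.2 CPM (0.43, SE 0.11, edgeR adjusted p = 0.0185). In all 4 genes both Dup-L libraries lay on one side of both WT libraries. Gnas, at 1289 and 1243 CPM against 1576 and 1812 CPM (-0.36, edgeR adjusted p = 0.0532), and Cdkn1c, at 451.2 and 403.8 CPM against 654.4 and 645.3 CPM (-0.54, edgeR adjusted p = 0.0572), did not pass. Neither did Igf2 (-0.1), Grb10 (0.09), Mest (-0.12), Plagl1 (0.31) or Ndn (-0.22). Under 13 alternatives Gnas was called lower in 5, among them DESeq2 and all 4 WT libraries as the reference. Cdkn1c was called lower in 1, DESeq2, and Plagl1 higher in 1, with all 4 WT libraries.

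The 4 members of 32 are a smaller share than the 23% of all genes that passed in Dup-L (11% higher, 11.9% lower), and 9 of 32 had an unadjusted p under 0.05, against 37.1% of all genes. Both Dup-L libraries lay below both WT libraries in 19 of 32 members (59.4%, against 39.5% of all genes tested) and above in 4 of 32 (against 29.2%). The median log2 fold change was -0.54 in maternally and -0.09 in paternally expressed members, with -0.16 in isoform-dependent ones and -0.02 over all genes. GC content and transcript length accounted for 42.9% of the variance of log2 fold changes over all genes in this comparison, against 2.04% in Dup-LΔBor. With offsets for both, 0 of 32 members and 24 genes in all passed; Igf2r stood at -0.4, Peg3 at -0.49, Phlda2 at -0.61 and Inpp5f at 0.27. The medians by copy were then -0.21 in maternally, -0.19 in paternally and 0.14 in isoform-dependent members, with 0.02 over all genes. Leaving out Dup-L 1 or Dup-L 2 left 0 members and 0 genes of all past the edgeR threshold, leaving out WT 4 left 0 members and 116 genes, and leaving out WT 2 left 2 members, Igf2r and Inpp5f, and 2530 genes. In the same contrast, the summed limb mesenchyme markers were higher with no overlap, at 2390 to 2520 CPM against 1850 to 2260 CPM. Single markers went both ways: Hoxd13 (0.58) and Prrx1 (0.52) rose, while Msx1 (-1.71) and Prrx2 (-0.56) fell. Limb type markers were lower with no overlap, at 197 to 203 against 224 to 268 CPM, as were the sums of 6 other lists. Cartilage markers were at 1080 against 1590 to 1840 CPM, muscle markers at 576 to 717 against 997 to 1250 CPM, and surface ectoderm markers at 566 to 781 against 784 to 856 CPM. In the surface ectoderm list the keratin genes Krt8 (-0.74) and Krt14 (-0.55) fell. Cdh1, Epcam, Esrp1, Grhl2, Perp and Trp63 had positive values, which did not pass. Endothelial markers were at 322 to 335 against 402 to 428 CPM, neural crest, glia and nerve markers at 120 to 124 against 174 to 182 CPM, and macrophage markers at 75.9 to 82.8 against 87 to 89.4 CPM. Of the endothelial list Sox18 (-1), Plvap (-0.95), Cldn5 (-0.73) and Egfl7 (-0.44) fell and Emcn (0.47) rose. No macrophage marker passed, and their values went both ways, as in Aif1 (0.61) and Csf1r (-0.42). Erythroid markers overlapped, at 1630 to 2330 against 1820 to 3140 CPM. Their part in these values was not tested.

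**Figure D4:**
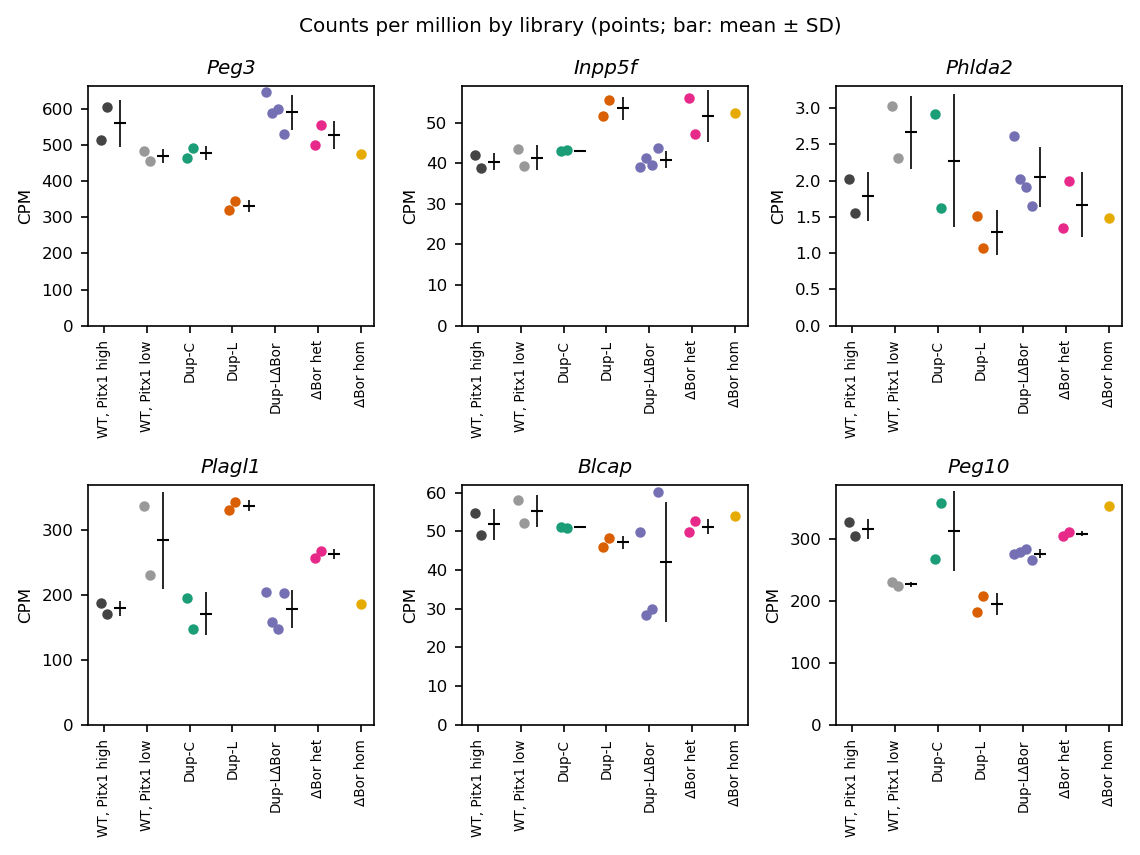
Levels of Peg3, Inpp5f, Phlda2, Plagl1, Blcap and Peg10 in CPM by genotype; points are libraries and bars the mean ± SD. Both Dup-L libraries are lowest of all for Peg3, at 319.2 and 344 CPM, and Plagl1 is higher in Dup-L (331.4 and 343.8 CPM) and WT 2 (336.5 CPM) than in every other library.

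Dup-C, het and hom had 0 members past the edgeR threshold. In Dup-C 1 gene of all those tested passed (0.00566%), and 3 of 32 members had an unadjusted p under 0.05, against 9.03% of all genes. Igf2r was at 328.9 and 311.2 CPM in Dup-C against 371 and 482.1 CPM in WT 1 and WT 3 (log2 fold change -0.4, SE 0.15, edgeR adjusted p = 0.541). It passed there when WT 1 was left out, when 1077 genes of all did. In het 1.37% of all genes passed, and 5 members had an unadjusted p under 0.05, against 24.1% of all genes. Usp29, at 31.3 and 31.5 CPM against 25.6 and 24.8 CPM (0.34, edgeR adjusted p = 0.0755), and Inpp5f, at 56.2 and 47.2 CPM against 41.9 and 38.9 CPM (0.38, edgeR adjusted p = 0.0801), came nearest. Plagl1 in het was at 256.9 and 267.9 CPM against 187.8 and 170.7 CPM (0.57, edgeR adjusted p = 0.1). In hom, which has 1 library assumed to vary like the other groups, 0.187% of all genes passed, and 7 members had an unadjusted p under 0.05, against 24.2%. Usp29 stood at 32.9 CPM (0.42, edgeR adjusted p = 0.097), Igf2r at 302.1 CPM (-0.47, edgeR adjusted p = 0.16) and Igf2 at 2794 CPM (0.05, edgeR adjusted p = 0.893). With DESeq2, 0 of 33 members passed in Dup-C, where 0.00818% of all genes did. In het 3 of 25 passed (Inpp5f, Plagl1, Usp29), against 13.8% of all genes, and in hom 2 of 25 (Kcnq1ot1, Usp29), against 11%, so both counts are at or under the background.

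**Figure D5:**
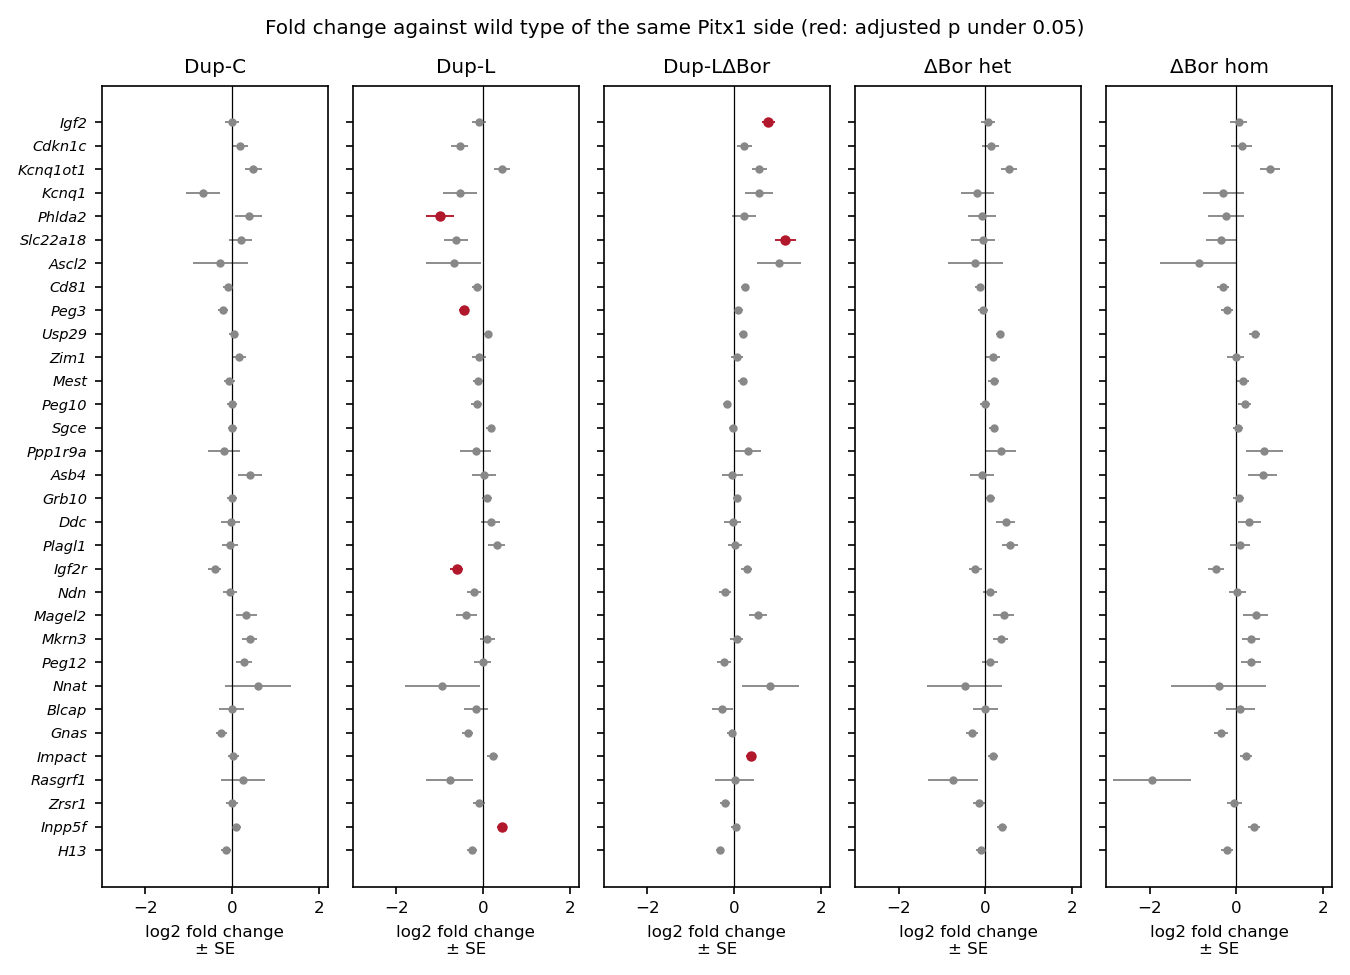
Log2 fold change ± SE of the 32 tested members against WT of the same Pitx1 side in each genotype; red points have an adjusted p under 0.05. Red points appear in Dup-L (Igf2r, Peg3 and Phlda2 below 0, Inpp5f above) and Dup-LΔBor (Igf2, Slc22a18 and Impact above 0), and 0 in Dup-C, het and hom.

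Between the WT libraries themselves, those with high Pitx1 and those with low Pitx1, 0 members passed the edgeR threshold, where 0.838% of all genes did. An unadjusted p under 0.05 was reached by 6 of 32 members, against 15.8% of all genes. Among maternally expressed members 1 of 11 log2 fold changes was positive (median -0.13). Paternally expressed members had 6 of 16 positive (median -0.06) and isoform-dependent ones 1 of 5 (median -0.1), against 49.8% of all genes. The Pitx1-high libraries, the reference for Dup-LΔBor, were thus lower in most maternally expressed members than the Pitx1-low ones, the reference for Dup-L. Peg10, a retrotransposon-derived gene, had 326.8 and 304 CPM in WT 1 and WT 3, against 229.7 and 223.3 CPM in WT 2 and WT 4 (log2 fold change 0.47, SE 0.12, edgeR adjusted p = 0.089). Plagl1 went the other way, at 187.8 and 170.7 against 336.5 and 231.2 CPM (-0.67, SE 0.19, edgeR adjusted p = 0.115), and Mest had 650.3 and 689.6 against 839.5 and 860.5 CPM (-0.35, SE 0.12, edgeR adjusted p = 0.173). DESeq2 called Peg10 and Plagl1, 2 of 29 members, where it called 4.37% of all genes. Dup-L, which has low Pitx1, had 182.7 and 208.1 CPM of Peg10 and 331.4 and 343.8 CPM of Plagl1. High Plagl1 did not go with low Pitx1 throughout, since both het libraries, with high Pitx1, lay above WT 4 in Plagl1.

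A second list of 40 imprinted genes was set beside the members, of which 39 were in the table and 34 were tested. In Dup-LΔBor 4 rose (11.8%, against 5.01% of all genes) and 0 fell: Sfmbt2, a Polycomb-related gene (log2 fold change 0.82, SE 0.19, edgeR adjusted p = 0.021), Mcts2, Zdbf2 (0.54, edgeR adjusted p = 0.025) and Airn, the antisense RNA that silences Igf2r (0.56, edgeR adjusted p = 0.0185). Airn overlaps Igf2r, and without strand their reads cannot be told apart. In Dup-L 3 rose (Ube3a, Tbc1d12, Casd1) and 3 fell (Tssc4, Osbpl5, Trappc9), 8.82% each, against 11% and 11.9% of all genes. In Dup-C, het and hom 0 of 34 passed. Of the Dlk1-Dio3 cluster, Meg3 stood at 0.103 to 0.292 CPM in Dup-LΔBor against 257 and 301 CPM in matched WT. Rian (-6.25) and Mirg (-5.73) fell there as well, while Dlk1 (0.91), Rtl1 (0.12) and Dio3 (0.07) did not pass. Meg3 also differed between the WT sides (-1.41 in the Pitx1-high libraries, edgeR adjusted p = 0.0184).

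Genes that set or keep imprints and genes of the IGF pathway gave these counts. Of 24 tested imprint-maintenance genes, 2 rose in Dup-LΔBor (8.33%, against 5.01% of all genes) and 0 fell. Zfp57, the zinc finger protein that protects methylated imprinting regions, was at 138, 124, 117 and 142 CPM against 77.7 and 87.7 CPM (log2 fold change 0.67, SE 0.11, edgeR adjusted p = 0.00505). Zfp57 also differed between the WT sides, with 126 and 132 CPM in WT 2 and WT 4 (-0.65 in the Pitx1-high libraries, edgeR adjusted p = 0.0349), so the Dup-LΔBor libraries overlapped the Pitx1-low WT. Tet2, which oxidizes methylcytosine, was at 124, 101, 96.9 and 120 CPM against 64.8 and 79.9 CPM (0.63, SE 0.15, edgeR adjusted p = 0.0217). In Dup-L 5 of the 24 rose, among them Suz12 (0.76) and Atrx (0.58), and 5 fell, among them Ehmt2 (-0.63), Uhrf1 (-0.54) and Dnmt1, the maintenance DNA methyltransferase (-0.42). That is 20.8% each way, against 11% and 11.9% of all genes. Of 22 tested IGF pathway genes, 1 (4.55%, against 2.82% of all genes), the IGF-binding protein gene Igfbp5, fell in Dup-LΔBor, at 580, 495, 485 and 520 CPM against 789 and 672 CPM (-0.47, SE 0.12, edgeR adjusted p = 0.0314). In Dup-L, Irs2 (-0.77), Foxo3 (-0.67), Igfbp2 (-0.67) and Akt1 (-0.57) fell, 18.2% against 11.9% of all genes. The Dup-L counts of both lists come from the fit without offsets for GC content and length. With these offsets 24 genes of all passed in Dup-L, against 4052 without. Igf1r, the receptor through which Igf2 signals, was at 332, 295, 272 and 292 CPM in Dup-LΔBor and at 311 and 285 CPM in matched WT.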

How the data were processed

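The deposited counts are raw counts per gene, and the deposited FPKM values are the authors' per-length levels. Reads were aligned with STAR to mm9, and bedtools 2.17.0 and DESeq2 are also named, per the submitters' processing notes. No source used here names the annotation, counting tool or strand setting. The columns used as Dup-LΔBor (R2 to R5) match no single label. Their names give a duplication, LacZ and a deletion, and their assignment to that group is an assumption. R4 and R5 carry the same library number, yet differed as other pairs did (mean chi-square per gene 27.3). Library numbers fall in 2 ranges: WT 3, WT 4 and Dup-LΔBor in one, all others in the other. Of 17 labelled samples, 2 of embryonic day 17.5 are not analysed here.

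All 15 libraries entered 1 fit of 7 groups in edgeR 4.0.16 (R 4.3.3; TMM, low counts filtered by filterByExpr, two-sided quasi-likelihood F-test with robust fitting, 8 residual degrees of freedom). It tested 17655 genes, with Benjamini-Hochberg adjustment over them and a threshold of 0.05. "Rose" and "fell" mean past that threshold. CPM are TMM-scaled over the whole table, the fit over the filtered one. Chromosomes, GC content and length came by symbol from a GRCm38 annotation, which covered 91.4% of tested genes and 32 of 32 members. Per-library values are given for members past the threshold in a genotype and for the head of each cluster. The members and lists were chosen with earlier results of these data known. Alternatives used limma 3.58.1 and DESeq2 1.42.0, among others. The fit was tested on simulated data for Dup-LΔBor against matched WT only, with no GC, limb-type or library-number effect in them. The other comparisons were not tested in this way.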

Additional observations from a re-analysis of the deposited data

Results flagged for a closer look

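Members with at least 30 counts in some library were examined in the groups of 4 libraries, Dup-LΔBor and WT. In 3 of these 62 cases, all in Dup-LΔBor, 1 library stood far from the rest by Dixon's criterion, and chance gives about 1 in 20. Slc22a18 stood at 2.05 CPM in R2, with 1.74 to 1.79 CPM in the other 3 libraries. Cd81 stood at 241 CPM in R2, with 223 to 225 CPM in the others. Sgce stood at 34.8 CPM in R5, with 33.6 to 33.7 CPM in the others.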

How the results depend on the processing

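Counts below are members past the threshold, with all genes past it in the same fit beside them. Igf2 in Dup-LΔBor passed in all 12 alternatives and in each of the 6 fits that left out 1 library (log2 fold change 0.64 to 0.93). In Dup-LΔBor the count of 3 (1383 genes) became 5 with all 4 WT libraries (679 genes), 5 with DESeq2 (2220), 6 with offsets for GC content and length (2654), 6 with these offsets and the library-number range (1698), and 1 within the library-number range (349). In Dup-L the count of 4 (4052 genes) became 0 with GC and length offsets (24), 0 with these and the library-number range (15), and 1, Peg3, within that range (1107). Against het, the 6 of Dup-LΔBor (6176 genes) became 2 with the library-number range as a term (733) and 3 with offsets added to it (1007). With all 4 WT libraries het had 2 (712 genes) and hom 1 (225), and with DESeq2 het had 3 (1668), hom 2 (1379) and the WT sides 2 (654). The WT sides had 3 (1613 genes) with offsets and library-number range together. Leaving out 1 library gave 0 to 1 in Dup-C, 0 to 2 in Dup-L, 1 to 4 in Dup-LΔBor, 0 to 2 in het, 0 to 3 in hom and 2 to 8 against het. Over all genes those fits gave 0 to 1077, 0 to 2530, 392 to 2580, 17 to 2438, 53 to 2787 and 2570 to 6224. The highest counts in Dup-C and hom and the lowest in Dup-LΔBor came without WT 1. The cause of these changes was not tested.

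Replicate numbers gave no sign of pairing the libraries. The difference between replicates within a group was correlated between groups, and the 6 correlations ran from -0.18 to 0.10. In WT that difference also crossed the split by limb type marker, so correlations with WT are a weaker check. Those without WT ran from -0.11 to 0.07. With the replicate number as a block, Dup-L had 0 members and 4 genes past the threshold, with 2 residual degrees of freedom.

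Alternatives within the library-number range, with an Xist term, and with offsets and range together were chosen after seeing the data. Low counts limit Slc22a18, Kcnq1, Phlda2, Ascl2, Nnat, Rasgrf1 and Ppp1r9a.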
